A study of Mus musculus with 4 samples.

Results

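Olfactory receptors outside chromosome 14 were examined in RNA that had been precipitated with an anti-TSSK2 antibody from mouse testis germ cells. The receptors were chosen by their symbol, which starts with Olfr in the mouse annotation GENCODE vM21 on the genome build GRCm38, by their place outside chromosome 14, and by at least 40 raw counts summed over the 4 libraries. By this rule 100 of the 1095 receptors off chromosome 14 in the count table were kept, out of 1135 receptors on all chromosomes, and they are called the counted receptors here. The choice rested on the sum over both groups, so a receptor could enter through high counts in 1 group alone, and levels that follow from this are given as a description. The kept receptors lay on 11 chromosomes and in 26 of the 59 genomic clusters off chromosome 14, where a cluster is a run of annotated receptor genes with gaps of at most 1 Mb.

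The study compared TSSK2-IP with control IgG-IP to find mRNAs associated with TSSK2, a serine kinase of elongating spermatids and a component of the late chromatoid body (late-CB), the cytoplasmic RNA granule of these cells. Germ cells of adult C57BL/6 testes were cross-linked with paraformaldehyde, lysed and sonicated, and the low-speed pellet was used as input for both precipitations. The 2 TSSK2-IP samples received the anti-TSSK2 antibody, and the 2 control IgG-IP samples received mouse IgG in its place. By the study's general protocol a lysate was shared out between both kinds of beads, so the libraries may be paired. The main comparison treated them as unpaired. The labels name no transgene or drug treatment for either group, and how many animals went into a library is not given in the sources used here. The labels do not say that the replicates came from separate animals, so the p-values measure the spread between these libraries, which may be technical.

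Olfactory receptors are G protein-coupled receptors with 7 transmembrane helices, and they form the largest gene family of the mouse. In the nose, each sensory neuron expresses a single receptor gene, which signals through the G protein Golf, adenylyl cyclase and a cyclic nucleotide-gated channel. The genes are spread over many genomic clusters of related copies, most of them have their whole coding sequence in a single exon, and class I receptors, the family related to fish receptors, sit together in a single cluster on chromosome 7. Transcripts of some receptors are known from testis and sperm, where a role in sperm chemotaxis has been proposed.

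Many of the counted receptors have close copies beside them, so the coding sequence bears on how well reads can be told apart. The pairs printed here are close copies from the 2 clusters with the highest summed counts in TSSK2-IP, and capitals mark the bases at which the pair differs within the first 60 coding bases, read from GRCm38 with the coding exons of GENCODE vM21.
Olfr979: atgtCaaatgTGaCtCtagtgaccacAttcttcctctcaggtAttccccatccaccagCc
Olfr980: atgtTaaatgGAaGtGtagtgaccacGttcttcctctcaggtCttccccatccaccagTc
Olfr1280: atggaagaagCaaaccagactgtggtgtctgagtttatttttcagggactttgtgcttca
Olfr1283: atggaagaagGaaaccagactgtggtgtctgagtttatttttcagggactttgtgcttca
Olfr979 and Olfr980 differed at 8 of these bases and were 92.9% identical over 930 aligned coding bases. Olfr1280 and Olfr1283 differed at 1 of these bases and were 93.77% identical over 915. A stretch of at least 150 bases with at least 97% identity to another gene in the annotation was found in the exons of 22 counted receptors, and for 15 of them the other gene was a receptor. None of the 13 receptors that were called higher in TSSK2-IP, by thresholds on the fold change and the adjusted p given with the comparison, held such a stretch (0 of 13).

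The 250 bases of GRCm38 before the annotated start were read for the 13 called receptors, a set defined by the call alone. Both strands were searched for TATAAA and for the short cyclic AMP response element TGACG. They were also searched for CCCNNGGG, the core of the Olf1/EBF site, and for the homeodomain core TAATTA. The homeodomain core and the Olf1/EBF core are known from receptor promoters in the nose. The 5 promoters printed here belong to the receptor with the largest fold change, which held no motif, and to receptors that held 1 of the motifs or more. Capitals mark the motifs, and the sequence is that of the gene's own strand.
Olfr19, chr16:16676406-16676655 (-): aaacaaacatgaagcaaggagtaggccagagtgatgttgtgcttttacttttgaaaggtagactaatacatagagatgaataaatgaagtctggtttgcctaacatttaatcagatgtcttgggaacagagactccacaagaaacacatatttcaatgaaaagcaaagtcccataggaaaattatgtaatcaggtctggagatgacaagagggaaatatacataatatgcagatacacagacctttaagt
Olfr18, chr9:20336095-20336344 (-): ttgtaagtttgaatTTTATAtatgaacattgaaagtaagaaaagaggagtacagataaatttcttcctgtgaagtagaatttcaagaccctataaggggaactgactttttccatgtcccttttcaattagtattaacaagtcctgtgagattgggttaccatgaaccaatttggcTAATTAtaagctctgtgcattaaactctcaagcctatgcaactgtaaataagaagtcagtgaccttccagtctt
Olfr1497, chr19:13798203-13798452 (-): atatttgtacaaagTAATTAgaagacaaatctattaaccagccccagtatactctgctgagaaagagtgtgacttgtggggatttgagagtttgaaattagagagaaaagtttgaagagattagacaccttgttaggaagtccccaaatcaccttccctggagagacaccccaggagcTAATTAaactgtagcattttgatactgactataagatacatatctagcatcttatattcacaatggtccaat
Olfr896-ps1, chr9:38290857-38291106 (+): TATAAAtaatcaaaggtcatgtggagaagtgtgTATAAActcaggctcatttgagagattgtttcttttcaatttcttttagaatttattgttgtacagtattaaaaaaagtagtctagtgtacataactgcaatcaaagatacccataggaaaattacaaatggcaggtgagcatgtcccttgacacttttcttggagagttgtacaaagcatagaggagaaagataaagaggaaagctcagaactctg
Olfr1280, chr2:111313767-111314016 (+): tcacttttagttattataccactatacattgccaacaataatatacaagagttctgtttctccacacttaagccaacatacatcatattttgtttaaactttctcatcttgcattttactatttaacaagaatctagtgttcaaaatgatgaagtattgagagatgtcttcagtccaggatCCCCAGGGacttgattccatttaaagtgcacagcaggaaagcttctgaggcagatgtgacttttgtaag
TATAAA was present in 4 of the 13 promoters, which is 30.77%, against 25% of the counted receptors, 29.69% of the receptors in the count table and 11.52% of all protein-coding genes. TAATTA was likewise present in 4 of 13, against 16% of the counted receptors, 22.47% of the receptors in the table and 4.991% of all protein-coding genes. CCCNNGGG was present in 1 of 13 promoters (7.692%), that of Olfr1280. It was present in 6% of the counted receptors, 13.83% of the receptors in the table and 13.7% of all protein-coding genes. TGACG was present in 0 of 13, in 1% of the counted receptors, in 2.555% of the receptors in the table and in 19.26% of all protein-coding genes. The median GC content was 36.8% in the 13 promoters, 37.2% over the receptors in the table and 54% over all protein-coding genes. Each share among the called receptors rests on only 13 sequences, and a match is a description of the letters.

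TSSK2-IP replicates 1 and 2 had total counts of 4158034 and 4491749, against 9858941 and 3938922 for the controls, and 1 count was worth 0.156 to 0.230 CPM (counts per 1000000 of the normalized library size). The control libraries were far less alike than the TSSK2-IP libraries. Over the 7474 genes with 50 counts or more in each library, log2 differences between replicates had an SD of 0.85 for the controls and of 0.24 for TSSK2-IP. Spermatid markers were abundant in all libraries, as the tissue label implies, with a summed level between 4045 and 4409 CPM over 8 of 8 genes in TSSK2-IP and of 10488 and 5218 CPM in control IgG-IP. The 4 markers of olfactory sensory neurons summed to 1.87 and 2.09 CPM in TSSK2-IP and to 2.65 and 6.20 CPM in control IgG-IP, with none of them at 0 in all libraries. Of their defining markers, Omp had 0 and 3 counts in TSSK2-IP and 0 and 8 in control IgG-IP, and Cnga2 had 1 count in each TSSK2-IP library. The 5 Sertoli cell markers summed to 25.3 and 16.0 CPM in TSSK2-IP and to 6.08 and 17.5 CPM in control IgG-IP, and the 4 Leydig cell markers had 135 and 147 counts in TSSK2-IP and 71 and 97 in control IgG-IP. The part of these cells in the receptor counts was not tested. The libraries are precipitates from mixed cells, so differences in marker level between them cannot be read as differences in cell number.

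Off chromosome 14, 13 counted receptors were higher in TSSK2-IP and 0 were lower, where a call needs a log2 fold change of 1 or more in size and an adjusted p up to 0.05. The p-values are from the quasi-likelihood test of edgeR, adjusted by Benjamini-Hochberg over all 14722 tested genes. Of all tested genes, 0.693% were higher by the same thresholds and 0.0% were lower. Of the 100 receptors 89 passed the filter on low counts, and their median log2 fold change was 1.37, against -0.02 over all tested genes. The range ran from -0.81 for Olfr199 to 5.21 for Olfr19, and 72 of the 89 were above 0 and 53 were at 1 or above, against 49.2% and 11.1% of all tested genes. At an unadjusted p under 0.05, 40 receptors were higher and 0 were lower in edgeR, against 8.34% and 4.89% of all tested genes, and DESeq2 called 17 higher, with 0.654% of all genes, and 0 lower. These counts were drawn from receptors chosen partly by their TSSK2-IP counts and are a description. The filter on low counts kept 64 of 65 receptors with both TSSK2-IP libraries above both controls. It kept 0 of 5 with both below, so the edgeR median and number of lower receptors also depend on the filter. With no filter all 100 were tested, 0 were lower and the median was 1.15. The number of higher receptors depended on the libraries used. It was 6 when TSSK2-IP replicate 1 was left out and 4 when replicate 2 was, with 0.137% and 0.202% of all tested genes called, and 31 or 52 when control replicate 1 or 2 was left out, with 5.38% and 17.9% of all tested genes. It was 3 with upper-quartile normalization (0.136% of all tested genes), 2 where every library had to hold 10 counts (0.231%), 28 with no filter on low counts (1.33%) and 25 with the replicate number as a block (1.86%). All 13 stayed at a log2 fold change of 1 or more in each alternative fit in which they were tested.

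**Figure D1:**
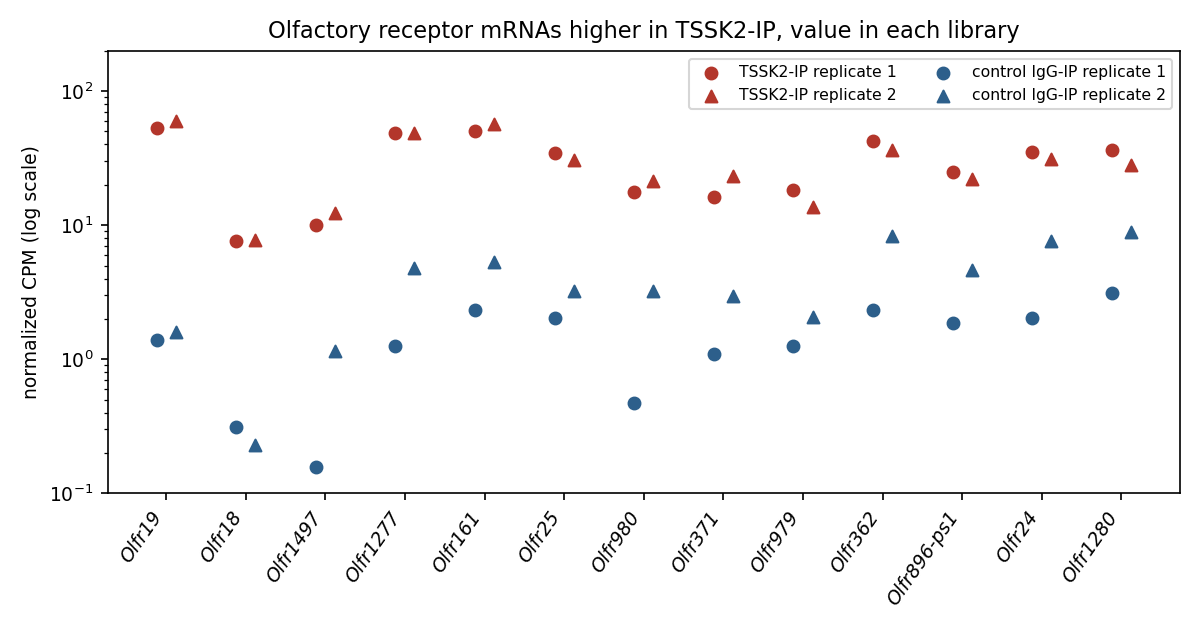
Normalized CPM, on a log scale, of the 13 olfactory receptors higher in TSSK2-IP, ordered by fold change, with 1 point for each of the 4 libraries. For every receptor both TSSK2-IP points lie above both control points, and control IgG-IP replicate 2 lies above replicate 1 for 12 of the 13.

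Of the 100 receptors, 65 were higher in each TSSK2-IP library than in either control, 5 were lower in each, and 30 overlapped. The same orders held for 27.3% and 21.6% of all tested genes. For 38 receptors the gap between the nearest libraries of the groups was 2-fold or more in favour of TSSK2-IP, against 4.01% of all tested genes, and all 13 called receptors were among them. For 1 receptor, Olfr804, it was 2-fold or more the other way, against 0.312% of all tested genes. With 2 libraries in each group, a two-sided exact permutation test of a single receptor cannot go below p = 0.333, so every call rests on the spread that edgeR shares across genes. Control IgG-IP replicate 2 exceeded replicate 1 for 85 of the 100 receptors, against 54.2% of all tested genes, so the fold change of most receptors was larger against replicate 1.

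Called receptors that stand alone in the genome, or nearly so, were found on chromosomes 16 and 8. Olfr19 (ENSMUSG00000048101, also named Or7a40), on chromosome 16 from 16672228 to 16676405, is the only receptor of its cluster in the table. Olfr19 had 52.7 and 59.7 CPM in TSSK2-IP and 1.40 and 1.61 CPM in control IgG-IP, from 254, 314, 9 and 7 counts. Its groups lay far apart and its control libraries were alike. With a log2 fold change of 5.21 (standard error 0.495) and an adjusted p of 3.49e-04 from edgeR, its difference was the largest among the counted receptors. Its exons overlap the pseudogene Gm44932 on the same strand over 121 bases, and how reads in that overlap were assigned is not given in the sources used here. Olfr161 (ENSMUSG00000051003, Or1f19), also on chromosome 16, from 3591042 to 3599323, shares its cluster with 1 other receptor in the table. Olfr161 had 50.2 and 57.1 CPM in TSSK2-IP and 2.34 and 5.28 CPM in control IgG-IP, a log2 fold change of 3.84 (standard error 0.497, adjusted p = 0.00414 from edgeR). The other receptor of that cluster had 3 and 10 counts in TSSK2-IP and 6 and 14 in control IgG-IP, so the groups overlapped there. Olfr371 (ENSMUSG00000051952, Or7c19), on chromosome 8 from 85225988 to 85231509, is also the only receptor of its cluster in the table. It had 16.2 and 23.4 CPM in TSSK2-IP and 1.09 and 2.99 CPM in control IgG-IP, with a log2 fold change of 3.32 (standard error 0.578, adjusted p = 0.0168 from edgeR). In all 3 of these receptors the lower TSSK2-IP library was well above the higher control library.

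The chromosome 9 receptors held 6 of the 13 calls, among 12 counted and 10 tested, and their median log2 fold change was 3.09. Of all tested genes 0.693% were called higher. The receptors were chosen partly by their TSSK2-IP counts, so the calls by chromosome are a description. In the cluster from 37708964 to 40190134 on chromosome 9, 8 receptors were counted and 4 were called. Olfr25 (ENSMUSG00000058270, Or8c9) had 34.4 and 30.8 CPM in TSSK2-IP and 2.03 and 3.22 CPM in control IgG-IP, with a log2 fold change of 3.65 (standard error 0.482, adjusted p = 0.00461 from edgeR). Its neighbour Olfr896-ps1 (ENSMUSG00000111814, Or8c18), 87.23% identical to it in coding sequence, had 25.1 and 22.1 CPM in TSSK2-IP and 1.87 and 4.60 CPM in control IgG-IP, and its log2 fold change was 2.90 (standard error 0.523). Olfr896-ps1 is listed as protein coding in the annotation although its symbol marks it as a pseudogene. At the other end of the same cluster, Olfr979 (ENSMUSG00000059473, Or10g9) had 18.5 and 13.7 CPM in TSSK2-IP and 1.25 and 2.07 CPM in control IgG-IP. Olfr980 (ENSMUSG00000060254, Or10g9b), the copy whose start is printed with that of Olfr979, had 17.8 and 21.3 CPM in TSSK2-IP and 0.468 and 3.22 CPM in control IgG-IP. The log2 fold changes of these copies were 3.29 and 3.49, with standard errors of 0.565 and 0.673, so they did not differ beyond their error. None of the called receptors of this cluster had overlapping groups.

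Other receptors of the cluster had smaller values or missed the threshold. Olfr981, which lies within 20 kb of Olfr980 and belongs to the same receptor family, had 13 and 15 counts in TSSK2-IP and 7 and 22 in control IgG-IP. Its groups overlapped with a fitted log2 fold change of -0.11 (standard error 0.878, adjusted p = 0.970 from edgeR). Olfr976 had 26 and 37 counts in TSSK2-IP against 27 and 18 in control IgG-IP, with a log2 fold change of 0.57 and an adjusted p of 0.681. Olfr930, with 19 and 23 counts in TSSK2-IP and 1 and 2 in control IgG-IP, had a count ratio per library size of 14.9 (95% interval 4.78 to 75.4, counting error only) but did not pass (adjusted p = 0.173 from edgeR). In the same region, the 87 receptors below 40 counts summed to 41.5 and 48.5 CPM in TSSK2-IP, between the 37.1 and 83.9 CPM of the control libraries, while the 8 counted receptors summed to 116 and 106 CPM in TSSK2-IP and to 12.6 and 23.2 CPM in control IgG-IP. The groups were thus apart in the sum of the counted receptors, which were chosen partly by their TSSK2-IP counts, and overlapped in the sum of the others.

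The other chromosome 9 cluster, from 18751507 to 20336094, held 4 counted receptors. Of these, 2 were tested and both were called, against 0.693% of all tested genes. Olfr24 (ENSMUSG00000054141, Or1m1) had 35.4 and 31.0 CPM in TSSK2-IP and 2.03 and 7.58 CPM in control IgG-IP, with a log2 fold change of 2.83 (standard error 0.553, adjusted p = 0.0308 from edgeR). Olfr18 (ENSMUSG00000066896, Or7e178) had 37 and 41 counts in TSSK2-IP and only 2 and 1 in control IgG-IP. Since its control counts were so low, its difference is given as a count ratio per library size of 27.8 (95% interval 9.16 to 138, counting error only). It passed the test (adjusted p = 0.0250 from edgeR), and its exons overlap the pseudogene Gm45815 on the same strand over 146 bases. Olfr77 and Olfr859 of the same cluster had lower values in both TSSK2-IP libraries than in both control libraries, with 9 and 6 counts against 12 and 20 and with 7 and 7 counts against 11 and 17. Neither passed the filter on low counts, so neither was tested. The cluster thus held receptors above and receptors below their controls.

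Chromosome 2 held 22 counted receptors, of which 19 were tested, with a median log2 fold change of 1.59. Of the 19, 3 were called, against 0.693% of all tested genes. The highest summed level was that of a cluster from 111230360 to 112159157 with 10 counted receptors, 9 tested and a median of 2.43. Olfr1277 (ENSMUSG00000074965, Or4k35) had 48.9 and 48.7 CPM in TSSK2-IP and 1.25 and 4.83 CPM in control IgG-IP, a log2 fold change of 4.06 (standard error 0.567, adjusted p = 0.00543 from edgeR). Olfr1280 (ENSMUSG00000109449, Or4k36), 73.27% identical to it in coding sequence, had 176 and 147 counts in TSSK2-IP and 20 and 39 in control IgG-IP. With a log2 fold change of 2.44 (standard error 0.515) and an adjusted p of 0.0476 from edgeR, it was nearest to the threshold among the called receptors. Olfr1283, the copy of Olfr1280 whose start is printed with it, had 31 and 34 counts in TSSK2-IP and 1 and 4 in control IgG-IP, and its log2 fold change of 3.65 (standard error 0.927) did not pass (adjusted p = 0.112 from edgeR). Olfr1281 and Olfr1284, between and beside these copies, also had both TSSK2-IP libraries above both controls, with log2 fold changes of 2.43 and 3.15 and an adjusted p of 0.117 each. The exons of Olfr1284 hold near-identical stretches of up to 278 bases with Olfr365 and Olfr767. Olfr1297, farther along the cluster, had 10 and 10 counts in TSSK2-IP and 8 and 12 in control IgG-IP, and its log2 fold change was 0.02. The 29 receptors of this cluster below 40 counts summed to 104 and 138 counts in TSSK2-IP and to 61 and 113 in control IgG-IP.

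**Figure D2:**
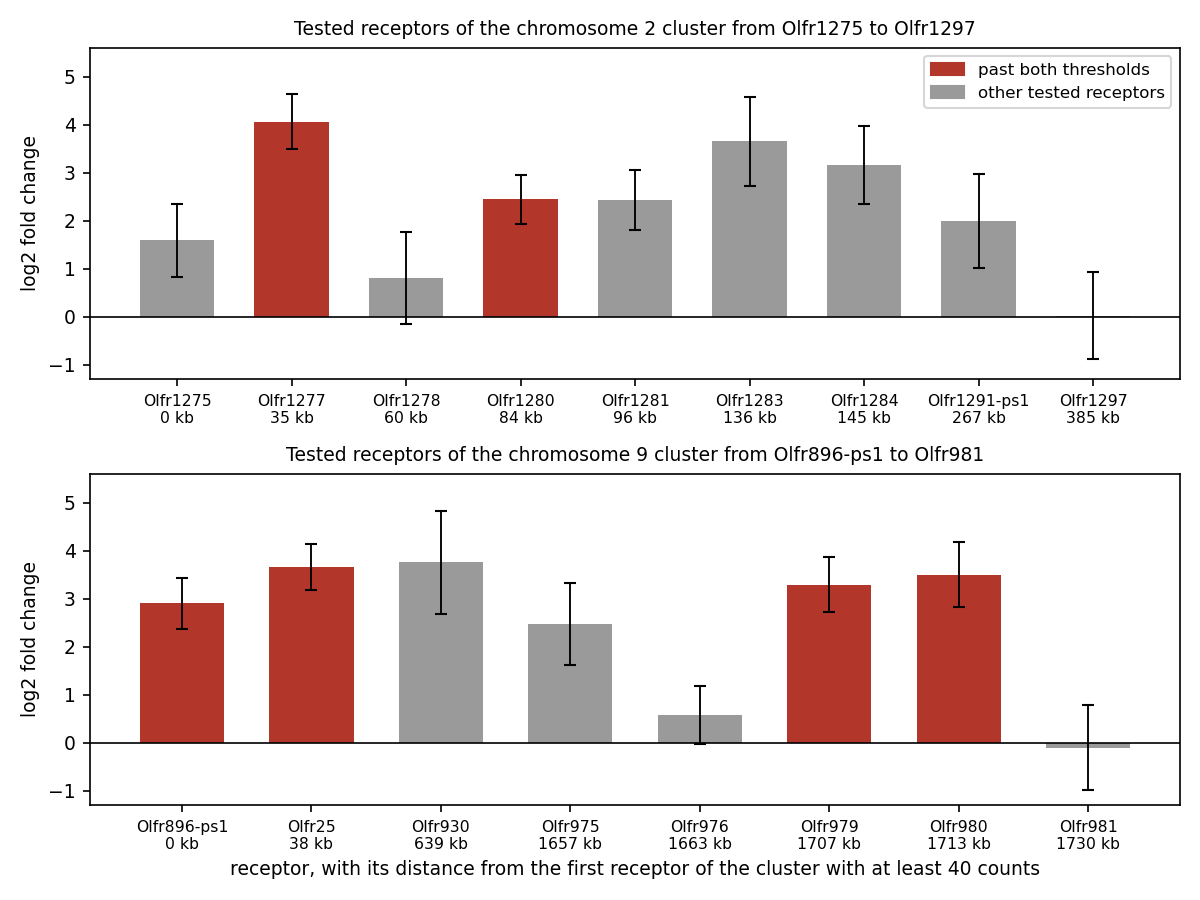
Log2 fold change of TSSK2-IP over control IgG-IP for the tested receptors of a chromosome 2 cluster and a chromosome 9 cluster, in genomic order, with the distance in kb from the first counted receptor under each symbol. Bars show the fitted value and error bars the standard error from 2 libraries a group, and Olfr1297, Olfr976 and Olfr981 at 0.02, 0.57 and -0.11 lie closer to 0 than the called receptors, which are at 2.44 to 4.06.

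The remaining chromosome 2 call was Olfr362 (ENSMUSG00000075377, Or1b1), from 37101706 to 37117910. It had 42.7 and 36.3 CPM in TSSK2-IP and 2.34 and 8.27 CPM in control IgG-IP, with a log2 fold change of 2.93 (standard error 0.543, adjusted p = 0.0236 from edgeR). The large cluster from 85330779 to 90403897, with 10 counted among 227 receptors in the table, held no call among its 8 tested receptors by edgeR. Its median log2 fold change was 0.61. With 0.693% of all tested genes called higher, no call among 8 is near the background. On chromosome 19, 1 of the 7 tested receptors was called, against 0.693% of all tested genes. This was Olfr1497 (ENSMUSG00000044040, Or9q2), with 9.95 and 12.4 CPM in TSSK2-IP and 0.156 and 1.15 CPM in control IgG-IP. The log2 fold change of Olfr1497 was 4.19 (standard error 0.797, adjusted p = 0.0267 from edgeR), and its lower control value is that of a single count. The fitted values of the chromosome 19 receptors ranged from -0.59 to 4.19 with a median of 2.77. Calls therefore came from 8 of the 26 clusters and 5 of the 11 chromosomes.

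Chromosome 7 had the most counted receptors, 26 with 24 tested, and their median log2 fold change was 1.21. In edgeR 0 of the 24 were called, which is near the 0.693% of all tested genes called higher and is no result about this chromosome. Both TSSK2-IP libraries lay above both controls for 16 of the 26, against 27.3% of all tested genes. Class was read from MOR names, and all 10 counted receptors with a class I name were in its cluster from 102476579 to 105369355. Olfr652 (Or52h7) of the same cluster had no MOR name, so it is in neither class here. Its log2 fold change was 1.95 (adjusted p = 0.292 from edgeR). Over the 9 tested class I receptors the median log2 fold change was 1.81 and the range -0.54 to 3.39, while over the 74 tested class II receptors the median was 1.29 and the range -0.81 to 5.21. At an unadjusted p under 0.05, 5 class I receptors were higher and 0 lower, against 8.34% and 4.89% of all tested genes, and DESeq2, which called 0.654% of all genes higher, called Olfr690 and Olfr691 of this class. Olfr691 had 25.7 and 17.5 CPM in TSSK2-IP and 0.780 and 5.74 CPM in control IgG-IP, and its log2 fold change of 2.79 (standard error 0.673) missed the threshold with an adjusted p of 0.0864 from edgeR. Olfr690 beside it, of the same receptor family, had 9.95 and 11.4 CPM in TSSK2-IP and 0.468 and 2.30 CPM in control IgG-IP, with a log2 fold change of 3.02 and an adjusted p of 0.0859. In both receptors the control libraries differed several-fold from each other. Of the class II receptors of chromosome 7, Olfr699 came nearest, at 3.64 (adjusted p = 0.0767 from edgeR). Whether class I and class II receptors differ was not tested.

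**Figure D3:**
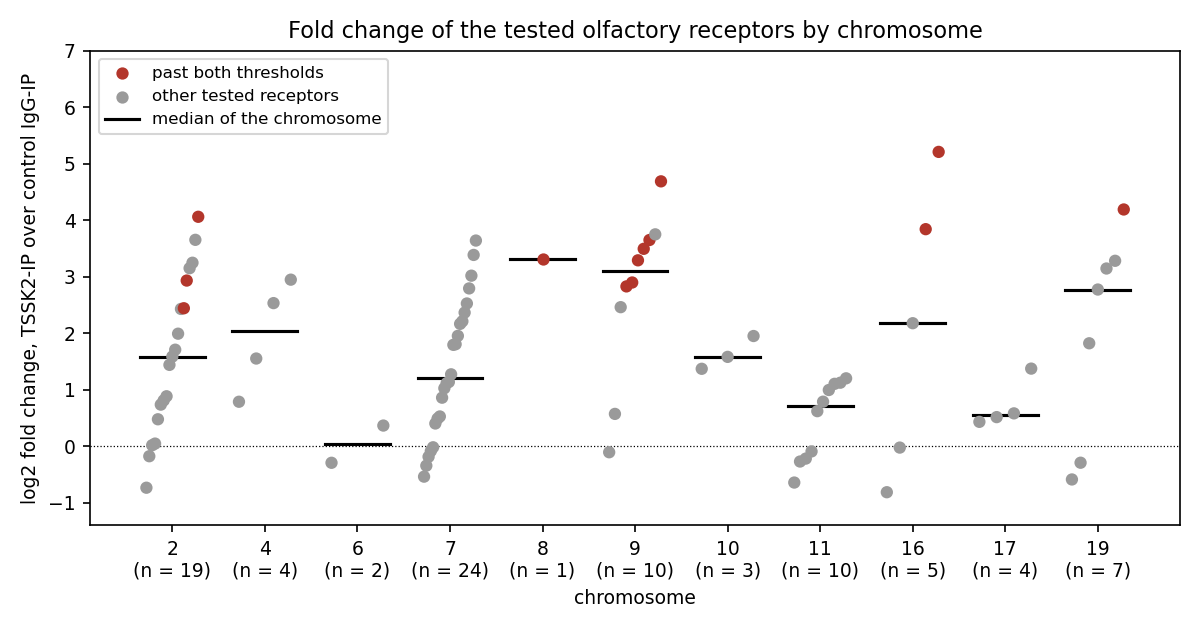
Log2 fold change of TSSK2-IP over control IgG-IP of the 89 tested olfactory receptors, by chromosome, with 1 point for each receptor, receptors past both thresholds in red and a line at the median. Chromosome 9 has 6 red points and a median of 3.09. Chromosome 7 has 24 points, 0 red ones and a median of 1.21. Of all tested genes 0.693% were called higher, so 0 red points on a chromosome is near that share.

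On chromosome 11, 0 of 10 tested receptors were called by edgeR, and the median was 0.70 with a range from -0.64 to 1.20. Chromosomes 4, 10, 17 and 6 had 4, 3, 4 and 2 tested receptors, 0 calls and medians of 2.04, 1.58, 0.55 and 0.04. With 0.693% of all tested genes called higher, 0 calls on each of these chromosomes is near the background. On chromosome 16, a cluster apart from the called receptors Olfr19 and Olfr161 spread widely, with Olfr183 at 2.18, Olfr190 at -0.02 and Olfr199 at -0.81. None of these 3 passed the threshold. Among the 13 clusters with at least 3 tested receptors, the median was at or above 1 in 7.

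Of the 5 most counted receptors, Olfr112 and Olfr701 were not called. Olfr112, on chromosome 17, had 147 and 169 counts in TSSK2-IP and 88 and 132 in control IgG-IP. On the CPM scale these were 30.5 and 32.2 CPM against 13.7 and 30.3 CPM, so the TSSK2-IP libraries lay only just above the second control library, with a fitted log2 fold change of 0.52 (standard error 0.443, adjusted p = 0.607 from edgeR). Olfr701, on chromosome 7, had 20.5 and 20.7 CPM in TSSK2-IP and 30.4 and 13.1 CPM in control IgG-IP. Its TSSK2-IP libraries were nearly equal while its control libraries lay on either side of them, and its log2 fold change was -0.09. Per kb of exon, Olfr701 was the most abundant counted receptor in control IgG-IP replicate 1 and Olfr112 in replicate 2, whereas Olfr19 was the most abundant in both TSSK2-IP libraries.

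The lowest fitted values belonged to receptors with few counts. Olfr199, at 40 counts, had 4 and 11 counts in TSSK2-IP and 5 and 20 in control IgG-IP, and its log2 fold change was -0.81 (standard error 1.04). Olfr1085 followed at -0.73, Olfr56 at -0.64, Olfr1489 at -0.59 and Olfr640 at -0.54. None of these 5 passed the threshold, with adjusted p-values between 0.728 and 0.810 from edgeR, and in each the groups overlapped. Olfr56 shares 111 exon bases with Ifi47 on the same strand, and Olfr640 shares 278 with its neighbour Olfr643. Olfr1489 overlaps Gm24124 on the opposite strand over 132 bases, and Olfr1085 holds a near-identical stretch of 945 bases with Olfr1081-ps1. Of the 11 receptors that were not tested, Olfr804 had the largest gap below its controls, with 4 and 6 counts in TSSK2-IP and 19 and 22 in control IgG-IP, and its count ratio per library size was 0.260 (95% interval 0.116 to 0.529, counting error only). Olfr804 was chosen after its values were seen. Its exons hold near-identical stretches of up to 628 bases with Olfr779 and Olfr782, and how reads in them were assigned is not given in the sources used here.

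Receptors known from tissues outside the nose were mostly too few in counts to enter. Of Olfr16, Olfr78, Olfr558, Olfr544, Olfr90 and Olfr15, none reached 40 counts, and their sums ran from 9 for Olfr16, also known as MOR23 and described in sperm, to 33 for Olfr15. Olfr16 had 0 and 1 counts in TSSK2-IP and 1 and 7 in control IgG-IP. Olfr2, known as the octanal receptor, had 6 and 22 counts in TSSK2-IP and 7 and 20 in control IgG-IP, with a log2 fold change of -0.02. Olfr1393, described in the kidney, had 6.63 and 10.5 CPM in TSSK2-IP and 4.84 and 3.68 CPM in control IgG-IP, with a log2 fold change of 1.00 (standard error 0.564, adjusted p = 0.442 from edgeR). Of these receptors, only Olfr1393 had both TSSK2-IP libraries above both controls. Its exons hold a near-identical stretch of 711 bases with Olfr1392, another counted receptor of its cluster.

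Levels of different receptors can be set side by side only per length of annotated exon. In TSSK2-IP the mean level per kb was 28.2 CPM for Olfr19, 17.0 for Olfr371, 9.41 for Olfr362 and 2.66 for Olfr18, the lowest of the 13. In control IgG-IP these receptors were at 0.756, 1.76, 1.26 and 0.0932 CPM per kb. Over all 100 receptors the median was 1.22 CPM per kb in TSSK2-IP against 0.486 for the controls, and over the 13 called receptors it was 7.52 and 0.604. The SD of the log2 level per kb among the 100 receptors was 1.69 in TSSK2-IP against 1.04 for the controls. The limit on summed counts lets in receptors that are high in TSSK2-IP alone, so this spread depends on the choice and is a description. Across receptors, which are not independent replicates and share the same 4 libraries, log2 CPM in the TSSK2-IP replicates had Pearson's r = 0.86 and in the control replicates r = 0.57 (100 receptors each). The log2 fold change had r = -0.43 and Spearman's rho = -0.37 with exon length over the 89 tested receptors. The 30 receptors with the shortest exons, from 1001 to 3130 bases, had 6 calls and a median log2 fold change of 2.50, and the 30 with the longest, from 5038 to 11486 bases, had 4 calls and a median of 0.77. Of all tested genes 0.693% were called higher, and the part of length in the calls was not tested.

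**Figure D4:**
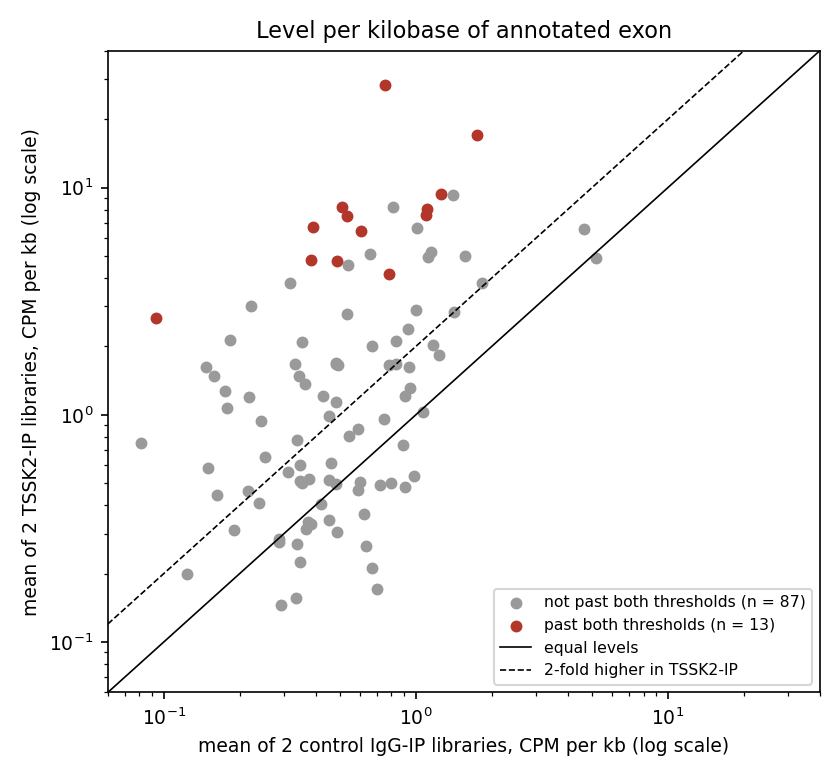
Mean CPM per kb of annotated exon in the 2 TSSK2-IP libraries against that in the 2 control IgG-IP libraries, both on log scales, with 1 point for each of the 100 counted receptors and the 13 called ones in red. The called receptors lie above the dashed line of a 2-fold difference, which follows from the threshold for a call. They are at 2.66 to 28.2 CPM per kb in TSSK2-IP.

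Summed over the 100 receptors, the level was 886 and 862 CPM in the TSSK2-IP libraries and 186 and 370 CPM in the control libraries. The 13 called receptors made up 44.7% and 45.5% of this in TSSK2-IP and 10.6% and 14.6% in control IgG-IP. Without them the other 87 still summed to 490 and 469 CPM in TSSK2-IP and to 166 and 316 CPM in control IgG-IP. The 995 receptors off chromosome 14 below 40 counts were at 502 and 607 CPM in TSSK2-IP and 467 and 1044 CPM in control IgG-IP, where the control libraries lay on both sides. All 1095 receptors together summed to 1388 and 1469 CPM in TSSK2-IP and to 653 and 1414 CPM in control IgG-IP, so that without the limit of 40 counts TSSK2-IP was close to control IgG-IP replicate 2. Among the receptors below 40 counts, both TSSK2-IP libraries lay above both controls for 96 (9.65%) and below both for 232 (23.3%). The shares over all tested genes were 27.3% and 21.6%, so the share below was near the background and the share above was under it. Most of these receptors had too few counts to be tested. The control IgG-IP replicate 2 had the highest level of such receptors of all libraries.

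**Figure D5:**
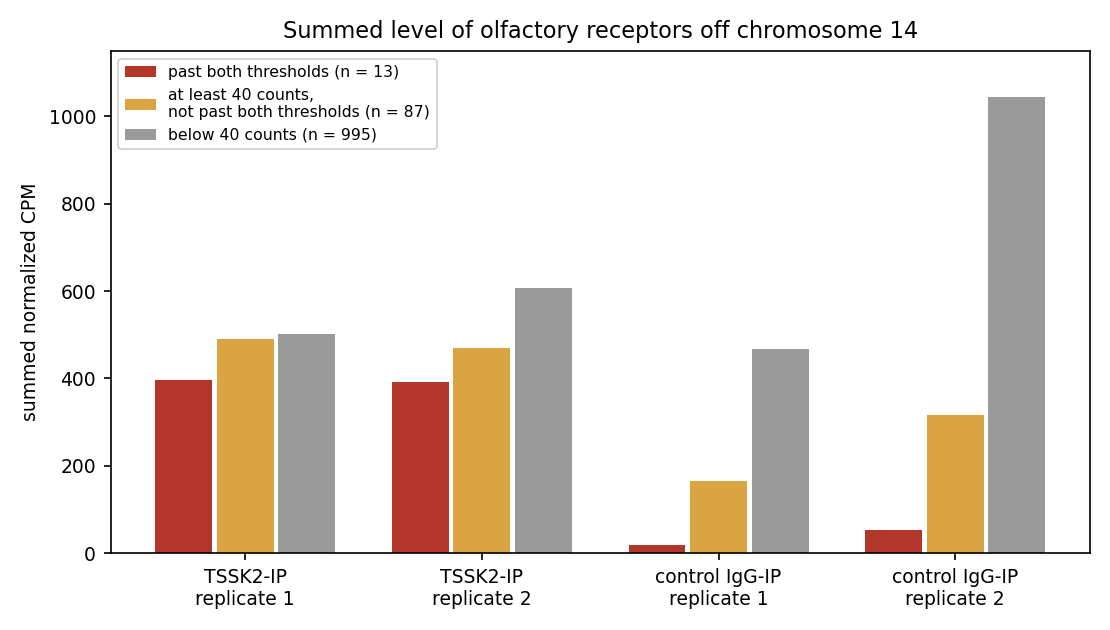
Summed normalized CPM in each of the 4 libraries for the 13 called receptors, the other 87 with at least 40 counts and the 995 below 40 counts, all off chromosome 14. The first group stands at 396 and 392 CPM in TSSK2-IP against 19.7 and 54.0 CPM in control IgG-IP, while the last is highest in control IgG-IP replicate 2, at 1044 CPM.

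At the limit itself, 6 receptors had exactly 40 counts, among them Olfr1271 and Olfr1291-ps1 with both TSSK2-IP libraries above both controls and the other 4 with overlapping groups. Just outside, 7 receptors had 39 counts, of which 0 had both TSSK2-IP libraries above both controls and 2 had both below. Over all tested genes these orders held for 27.3% and 21.6%. Olfr61, with 38 counts, missed the limit although it had 23 and 13 counts in TSSK2-IP and 0 and 2 in control IgG-IP. Low totals thus did not always go with overlapping groups.

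Chromosome 14, which the rule left out, held 10 receptors with at least 40 counts. Of these, 9 were tested, with a median log2 fold change of 3.67, and 5 were called, against 0.693% of all tested genes. The 10 receptors summed to 353 and 371 CPM in TSSK2-IP and to 17.8 and 50.8 CPM in control IgG-IP. Whether the groups of receptors differ was not tested.

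The genes that serve olfactory receptors in the nose were examined beside them. None of the 27 listed genes passed both thresholds in either direction among the 21 tested (0 higher and 0 lower in edgeR, with 0 at an unadjusted p under 0.05 in each direction and 0 called by DESeq2), and their median log2 fold change was 0.13. With 0.693% of all tested genes called higher and 0.0% lower, a count of 0 among 21 genes is near the background and is no result about this list. Of the 21 tested genes, 4 had both TSSK2-IP libraries above both controls and 4 had both below, against 27.3% and 21.6% of all tested genes. Of the 14 signalling genes, Pde1c, the calcium-dependent phosphodiesterase of the cilia, had the most counts, with 608 and 565 CPM in TSSK2-IP and 653 and 270 CPM in control IgG-IP, and its groups overlapped. Gnal, which encodes the Golf alpha subunit, had 12.9 and 17.7 CPM in TSSK2-IP and 6.87 and 10.3 CPM in control IgG-IP, with a log2 fold change of 0.84 (adjusted p = 0.428 from edgeR). Of the 5 trafficking genes, which help receptors to the cell surface, Gfy and Reep1 were tested. Reep1 had the most counts, with 39 and 38 in TSSK2-IP and 14 and 36 in control IgG-IP, and its groups overlapped. Gfy had 48 and 34 counts in TSSK2-IP and 5 and 27 in control IgG-IP, and its log2 fold change of 1.28 was the largest of the list (adjusted p = 0.467 from edgeR). Of the 8 genes of receptor choice, Bptf, a chromatin remodelling factor, had the most counts. Bptf had 176 and 175 CPM in TSSK2-IP and 568 and 227 CPM in control IgG-IP. Its log2 fold change of -1.18 did not pass (adjusted p = 0.413 from edgeR) and was the lowest of the 8. The log2 fold changes of the 8 ran up to 1.07, with 3 above 0 and 5 below, against 49.2% of all tested genes above 0.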

How the data were processed

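RNA from 2 TSSK2-IP and 2 control IgG-IP samples was sequenced with paired reads. The library protocol keeps the strand, and rRNA had not been depleted. Per the submitters' processing notes, reads were trimmed with Trimmomatic 0.39, mapped to GRCm38 with STAR 2.7.10a (the methods name another version) and counted with featureCounts 2.0.3. The authors deposited whole-number counts, not normalized, for 21936 gene identifiers, of which 21817 were found in GENCODE vM21. Neither the strand setting nor the treatment of reads on overlapping genes is given in the sources used here. Exons of 12 counted receptors overlap another gene, 6 on the same strand and 6 on the opposite one, so these values are uncertain.

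The counts were fitted over the whole table with edgeR 4.0.16 in R 4.3.3 (filterByExpr, TMM, glmQLFit, glmQLFTest) and adjusted by Benjamini-Hochberg over all 14722 tested genes. A call needed a log2 fold change of 1 or more in size and an adjusted p up to 0.05. CPM are counts per 1000000 of the TMM-scaled library size, and per kb values divide by the length of all annotated exons, UTRs included. Intervals of count ratios are exact binomial at 95%. Shared stretches were searched with BLAST+ 2.17.0 and coding sequences aligned with Biopython 1.88. Receptor classes came from the MOR names among RefSeq synonyms, found for 94 of 100 receptors, and newer receptor names from a supplementary table of the study.

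The rule for named genes took every receptor past both thresholds, the 5 with the highest summed count, the 5 with the lowest fitted log2 fold change, those known from tissues outside the nose, those nearest to 40 counts and the most counted gene of each part of the pathway list, and others were named for their place beside these or, as Olfr61, Olfr690, Olfr691, Olfr699, Gnal and Gfy, after their values were seen. Receptors, lists and tests were chosen with earlier results of these data known. The alternatives were DESeq2 1.42.0, its size factors in edgeR, upper-quartile normalization, no filter on low counts, at least 10 counts in every library, the replicate number as a block, leaving out each library, limits of 20 and 80 counts, and cluster gaps of 500 kb. An alternative without overlapping genes and shared stretches was added after seeing the data. The main edgeR and DESeq2 fits were tested on simulated data.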

Additional observations from a re-analysis of the deposited data

How the results depend on the processing

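Of the 13 receptors past both thresholds, the same 13 were called with DESeq2's size factors in edgeR, with no filter on low counts and with DESeq2. The limits of 20 and 80 counts only changed which receptors were looked up in the main fit. The least counted of the 13, Olfr18, had 81 counts, so these limits could not drop a call. The number of higher receptors was 3 with upper-quartile normalization (Olfr19, Olfr161 and Olfr25), 28 with no filter on low counts and 2 with at least 10 counts in every library, where 26 receptors were tested. With the replicate number as a block it was 25, the same 13 included. The numbers may pair the libraries, since the study's precipitation protocol shared a lysate out between the anti-TSSK2 and the IgG beads. The sources used here do not say which libraries came from the same lysate. Deviations of same-numbered libraries had a correlation of 0.22 over 7474 genes, which with only 2 pairs of libraries cannot decide it. Leaving out 1 library gave from 4 (without TSSK2-IP replicate 2) to 52 (without control IgG-IP replicate 2) higher receptors. The number of lower receptors was 0 to 1 when a library was left out, the 1 being Olfr624 without control IgG-IP replicate 1, and 0 in the other alternatives. The median log2 fold change was 2.37 with a limit of 80 counts, and 0.83 to 1.88 when a library was left out. Without receptors that overlap another gene or share a stretch, 11 of 65 were called, against 0.693% of all tested genes. The median of these 65 was 1.58. Over the alternative values of single named receptors, 168 of 208 kept their direction and side of the threshold, 30 were in the same direction but no longer past it, 1 was newly past it and 9 turned sign. With at least 10 counts in every library Olfr701 turned to 0.0053, with the block to 0.032, and it ran from -0.63 to 0.71 when a library was left out, the highest without control IgG-IP replicate 1. Olfr199 ran from -1.61 to 0.83 and Olfr1489 from -1.69 to 1.34 when a library was left out, both highest without control IgG-IP replicate 2, and Olfr1489 was at 0.07 without TSSK2-IP replicate 2. Olfr2 turned to 0.0091 with no filter, and ran from -1.13 to 1.24 when a library was left out, with 0.61 without TSSK2-IP replicate 1 and the highest without control IgG-IP replicate 2. The causes were not tested. A limit of 3 counts was 0.468 to 0.689 CPM, so receptors near it have no usable fold change, and fits without 1 library assume that the lone sample of a group varies like the others.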
